A study of Rattus norvegicus with 16 samples.

Results

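S100a8 and S100a9 are 2 genes of the S100 family whose protein products pair to form calprotectin. The members were taken as every array probe whose reference transcript maps to either gene. This gave 1 probe for S100a8 (A_44_P1055780) and 1 probe for S100a9 (A_44_P353618), of 45598 rat probes, so that 2 of the 16678 genes named on the array are described here. They were chosen by their large log2 fold changes with house dust mite (HDM) in these same arrays, so their HDM against control values are a description and carry no test.

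Calprotectin binds calcium, and it holds back zinc and manganese from microbes. It is among the most abundant proteins of the neutrophil cytosol, is also made by monocytes and by stressed squamous epithelium, and serves as a marker of neutrophil-rich inflammation. Once released, it can act on Toll-like receptor 4 and on the receptor RAGE, and inside the neutrophil it carries arachidonic acid to the NADPH oxidase.

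The rats were 8 Brown Norway males, a strain prone to allergic responses, and each gave RNA from lung and from adipose tissue. Their stated age of 7 weeks is read as that before the injections, and the age at sampling is not stated. The 5 HDM rats received 45 µg of HDM with aluminum hydroxide under the skin 1 time per week for 3 weeks, and were then given 120 µg of HDM into the nose 3 times per week for 3 weeks. The 3 control rats received saline with the same adjuvant, and then saline into the nose, so that both groups had been injected with aluminum hydroxide. With 1 array per rat and tissue there were 16 arrays.

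Levels are given as log2 of the spot intensity minus the 75th percentile of the array, so that a level of 0 equals that percentile and a difference of 1 is a doubling. The percentile lay at an intensity of 376 to 488 on the lung arrays and of 111 to 240 on the adipose arrays, and 62.2% to 68.8% and 51.0% to 60.3% of the probes were well above background. All lung arrays lay on 1 slide and all adipose arrays on the other, so that tissue and slide cannot be told apart. On each slide the control rats shared row 2 with HDM rat 5, and row 1 held HDM rats 1 to 4. Genes of the epididymis were high in the adipose arrays of control rat 1 and HDM rat 1, and the adipose array of HDM rat 2 held more outlier spots than the others, so adipose values of S100a8 and S100a9 without these arrays are also given. The surfactant and adipocyte genes were high in the tissue that each label names. In whole tissue, fewer cells of a type and less RNA per cell cannot be told apart.

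Of the sequences of rat promoters in RefSeq (build GRCr8), 1 of the 2 genes, S100a9, was matched. A window of 300 bases around its annotated start, on the minus strand of chromosome 2, was searched on both strands for 5 motifs of factors and elements known from myeloid promoters, since both members were higher together in the HDM rats. The 250 bases before the start are shown, with the matches in capitals. The first is the core of the PU.1 motif (GAGGAA, read on the other strand as TTCCTC), which begins 209 bases before the start and is held by 27.6% of all 33469 promoters. The second is the TATA box (TATAAA), 42 bases before the start, which 14.2% of promoters hold. The matches do not overlap.
S100a9 promoter, chr2:178490623-178490872: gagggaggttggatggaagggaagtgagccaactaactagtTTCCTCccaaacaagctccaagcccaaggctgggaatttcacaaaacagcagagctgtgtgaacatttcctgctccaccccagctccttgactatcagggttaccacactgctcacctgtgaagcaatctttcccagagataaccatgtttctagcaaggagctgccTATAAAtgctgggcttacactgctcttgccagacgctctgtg
The C/EBP motif (TTGCNNAA), the STAT motif (TTCNNNGAA) and the NF-kB motif (GGGNNTTCC) had no match in this window, and 10.6%, 8.87% and 5.92% of promoters hold them. Only these spellings were searched, so sites of another length or sequence would have been missed.

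In the lungs, both genes were at a far higher level in every HDM rat than in any control rat. For S100a8, the levels of HDM rats 1 to 5 were 6.30, 5.86, 6.85, 5.95 and 5.53, and those of control rats 1 to 3 were 1.80, 1.81 and 1.30. HDM rat 3 was the highest, HDM rat 5 the lowest, and a gap of 3.72 on the log2 scale lay between HDM rat 5 and the highest control rat. The log2 fold change was 4.46 (SE 0.29), a 22.1-fold difference between a mean level of 6.10 ± 0.50 (SD, n = 5) in HDM rats and of 1.64 ± 0.29 (SD, n = 3) in control rats. In intensity, the scanner's own scale, the S100a8 spot read 22534 to 43457 in HDM rats and 957 to 1536 in control rats, and no spot of either gene was saturated.

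S100a9 ran in parallel. Its lung levels were 6.68, 6.30, 7.23, 6.35 and 6.21 in HDM rats 1 to 5, and 2.48, 2.58 and 2.33 in control rats 1 to 3. The order of the HDM rats was the same as for S100a8, with HDM rat 3 at the top and HDM rat 5 at the bottom, and the groups lay 3.63 apart at their nearest. The log2 fold change was 4.09 (SE 0.24), or 17.1-fold. Among all 45598 probes, 3 had a larger rise than S100a8 in the lungs and 6 had a larger rise than S100a9. Groups without overlap were seen in the lungs at 4.65% of the probes with the HDM rats above and at 4.97% with the HDM rats below, and this contrast had chosen the members, so nothing is read from it for them.

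Adipose tissue held much less signal of both genes, and it too separated the groups. For S100a8, the adipose levels of HDM rats 1 to 5 were 0.97, 0.92, 2.02, 0.39 and 0.13, and those of control rats 1 to 3 were -4.85, -2.75 and -3.73. HDM rat 3 was again the highest and HDM rat 5 the lowest. The log2 fold change was 4.66 (SE 0.55), a 25.3-fold difference. The control levels were spread over 2.11 on the log2 scale, and control rat 1, at an intensity of 3.83, was not well above background, while the other control rats read 20.8 and 17.1. Without control rat 1 the log2 fold change was 4.12, and without HDM rat 2, whose array held the most outlier spots, it was 4.65.

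S100a9 was well above background on all 16 arrays and gave the tighter adipose values. Its levels were 1.24, 1.61, 1.98, 0.84 and 0.74 in HDM rats 1 to 5, and -2.13, -2.61 and -2.91 in control rats 1 to 3. HDM rats 3 and 5 were again at the 2 ends of the group, and the nearest HDM and control rats lay 2.87 apart. The log2 fold change was 3.83 (SE 0.33), or 14.2-fold. No probe of the array rose more than S100a8 in adipose tissue, and 1 probe rose more than S100a9. Relative to the median of all probes, which was -0.15 in adipose tissue and 0.00282 in the lungs, the adipose changes were 4.82 for S100a8 and 3.98 for S100a9. In adipose tissue, 1.54% of probes had every HDM rat above every control rat and 4.72% had every HDM rat below, and no probe, that is 0%, passed an adjusted p of 0.05 with a fold change above 1.5 in limma.

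**Figure D1:**
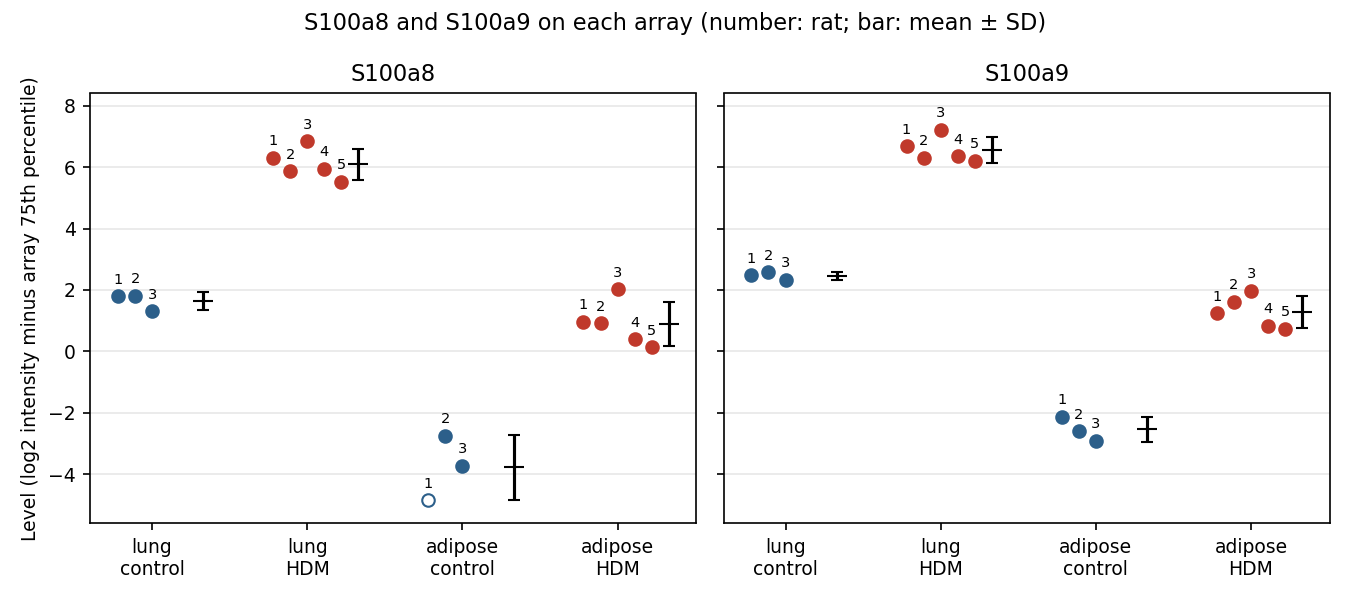
Level of S100a8 (left) and S100a9 (right) on each of the 16 arrays, as log2 intensity minus the 75th percentile of the array, by tissue and group. Numbers name the rats, black bars give the mean ± SD, and the open circle is the adipose array of control rat 1, where S100a8 was not well above background. In both tissues every HDM rat lies above every control rat, and in both panels the lung arrays lie above the adipose arrays of the same group.

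The row of the slide moved with the groups. Within row 2, which holds 1 HDM rat, HDM rat 5 exceeded the mean of the control rats by 3.89 for S100a8 and 3.75 for S100a9 in the lungs, and by 3.91 and 3.29 in adipose tissue. These values are lower than those over all HDM rats, and HDM rat 5 was the lowest HDM rat in each of the 4 sets. The adipose values were lower with another background correction and scaling together, where normexp with an offset of 50 and quantile normalization gave log2 fold changes of 2.71 for S100a8 and 2.65 for S100a9, or 6.55-fold and 6.28-fold.

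The lungs and the adipose tissue were compared within each rat. The arrays of the control rats had entered the choice of the members, so this contrast too is a description with no test. In control rats, S100a8 was higher in the lungs by 6.65, 4.56 and 5.03 on the log2 scale, and S100a9 by 4.60, 5.19 and 5.23. The mean difference for S100a8 was 5.41 (SE 0.36), or 42.6-fold. For S100a9 the difference was 5.01 (SE 0.21), or 32.2-fold. The differences kept their direction in every one of the alternatives tried, between 3.26 and 5.84 for S100a8 and between 3.81 and 5.26 for S100a9. Over all probes limma called 12.0% higher in the lungs and 32.2% lower, with a median of -0.58, and nothing is read from this for the members.

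In HDM rats both genes were again higher in the lungs. S100a8 was higher in the lungs of HDM rats 1 to 5 by 5.33, 4.94, 4.84, 5.56 and 5.40, and S100a9 by 5.44, 4.69, 5.25, 5.51 and 5.46. The means were 5.21 ± 0.31 (SD, n = 5) and 5.27 ± 0.34 (SD, n = 5), and the values of single HDM rats overlap those of the control rats for both genes. The difference between the tissues in the HDM change was not tested, since the HDM change chose the members. The mean S100a8 level in the adipose tissue of HDM rats, 0.89, was below the 1.64 of the lungs of control rats.

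The rats that stood high in one tissue tended to stand high in the other. HDM rat 3 was the highest and HDM rat 5 the lowest HDM rat in all 4 sets of 2 genes and 2 tissues. The place of HDM rat 3 was not particular to these genes. Of the 14 other S100 genes measured, it was the highest HDM rat for 8 in the lungs and 6 in adipose tissue. HDM rat 5 was the lowest for 1 in each tissue. In intensity before scaling, HDM rat 2, at 34079, lay below HDM rat 5, at 35996, for S100a9 in the lungs. Over the 8 rats, the deviations from the group means in the lungs and in adipose tissue had a correlation of 0.60 for S100a8 and 0.70 for S100a9. Between both genes the correlation was 0.96 in the lungs and 0.36 in adipose tissue, where control rat 1 was the lowest control rat for S100a8 and the highest for S100a9. These correlations rest on 8 rats with 6 degrees of freedom, both genes of a tissue share an array and its scaling, and no p is given for them.

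**Figure D2:**
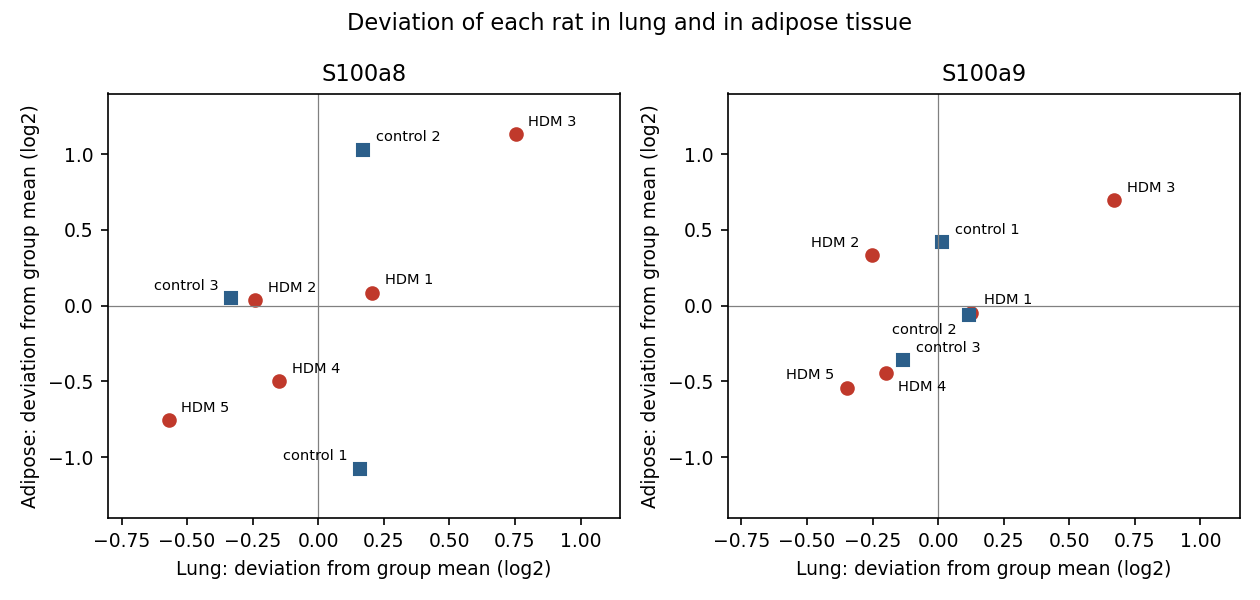
Deviation of each rat from the mean of its group in the lungs (x axis, log2) and in adipose tissue (y axis, log2), for S100a8 and S100a9. Red circles are HDM rats and blue squares are control rats. HDM rat 3 lies at the upper right and HDM rat 5 at the lower left in both panels, and control rats 1 and 2 lie 2.11 apart on the y axis for S100a8.

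No other S100 gene passed the test. Of the 16 other family members listed, 14 were measured, and none was called in the lungs or in adipose tissue, where 0.482% of all probes were called higher and 0.373% lower in the lungs and 0% in adipose tissue. Their median log2 fold change was 0.11 in the lungs and 0.02 in adipose tissue, beside 0.00282 and -0.15 over all probes. In the rat genome S100a8 and S100a9 stand side by side on chromosome 2, with S100a6 and S100a7a on one side and S100vp beyond Pglyrp4 and S100a7l2 on the other. S100a6, a calcium-binding protein of many cell types, had a log2 fold change of 0.18 (SE 0.17) in the lungs and -0.10 (SE 0.18) in adipose tissue. No lung array had S100a7a well above background.

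S100vp was the only S100 gene of the list whose groups did not overlap in a tissue. The HDM rats exceeded the control rats by 2.30-fold or more in the lungs (limma adjusted p = 0.573), and its lung spot was well above background for 1 of 5 HDM rats and 0 of 3 control rats. That rat was HDM rat 2, at a level of -0.25, with the other HDM rats between -6.40 and -5.50, so that no bound can be given without it. In adipose tissue HDM rat 2 was also the rat at the top, at -2.51, with the others between -6.67 and -6.18. Other S100 genes also had different levels in the tissues. S100b, a protein of fat cells and glia, was 7.72 lower in the lungs than in adipose tissue on the log2 scale in control rats, and S100g, a calcium-binding protein of epithelia, was 6.78 higher. The adipose levels of S100g in control rats were spread from -4.32 to 0.17, and 2 of 3 of these arrays were well above background.

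**Figure D3:**
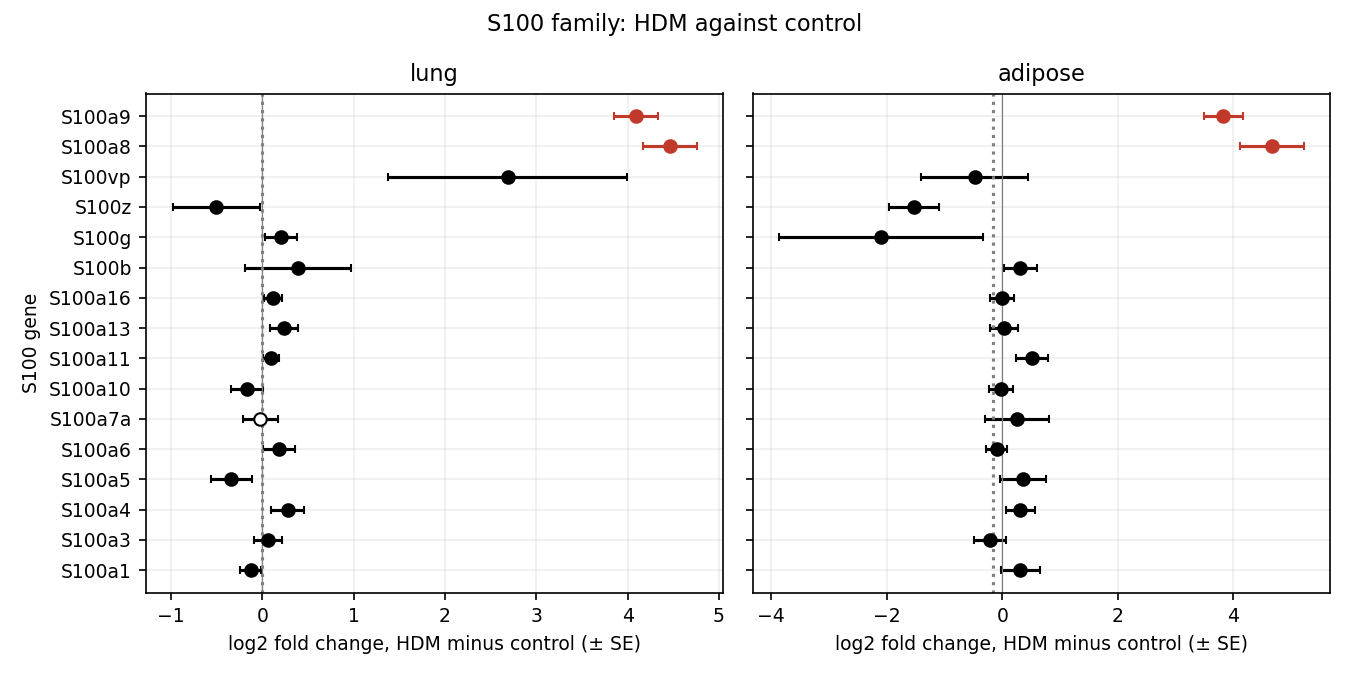
Log2 fold change (HDM minus control, ± SE) of S100a8 and S100a9 (red) and of 14 other S100 genes (black) in the lungs (left) and in adipose tissue (right). The dotted line is the median of all probes, and the open circle marks a gene with no array of the tissue well above background. S100a8 and S100a9 lie between 3.83 and 4.66, and the other genes between -2.10 and 2.69.

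Neutrophil genes rose in the lungs together with the calprotectin genes. Of the 13 measured genes of the mature neutrophil list, 9 rose, none fell and 4 did not pass the test, where 0.482% of all probes were called higher and 0.373% lower. The median log2 fold change was 1.07, beside 0.00282 over all probes. Mmp8, the neutrophil collagenase, rose by 3.95 on the log2 scale (SE 0.25, limma adjusted p = 0.000638), or 15.5-fold. Mmp9, a gelatinase stored in neutrophil granules, rose by 3.23 (SE 0.21, limma adjusted p = 0.000736). Cxcr2, the receptor that guides neutrophils along CXC chemokines, rose by 2.46 (SE 0.14), and Csf3r, the receptor of the granulocyte growth factor G-CSF, rose by 2.18 (SE 0.15). Among the other genes that rose were Padi4, Il1r2, Itgam and Mxd1, by 0.64 to 1.62. Cxcr1 and Fpr1, receptors for chemokines and for formyl peptides, had log2 fold changes of -0.44 and -0.66 with the HDM rats below all control rats, and neither passed the test.

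In adipose tissue none of the 13 genes of the same list passed the test, where 0% of all probes were called. The median log2 fold change was 0.57, beside -0.15 over all probes. No adipose array had Mmp8 well above background. Cxcr2 had a log2 fold change of 0.61 (SE 0.47), Mmp9 of 0.48 (SE 0.38) and Padi4 of -0.13 (SE 0.31), with overlapping groups, while S100a8 and S100a9 stood at 4.66 and 3.83 on the same arrays. Csf3r was the gene of the list that kept the groups apart. Its spot stood well above background for 4 of 5 HDM rats and 0 of 3 control rats, with levels of -4.22, -0.85, -3.91, -3.89 and -4.46 in HDM rats 1 to 5. The HDM rats exceeded the control rats by 2.36-fold or more (limma adjusted p = 0.476), a bound set against the dimmest signal well above background on each control array. HDM rat 2 was far above the other HDM rats, and without it the bound was 1.5-fold.

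A test of the change in the lungs minus the change in adipose tissue called 0.00219% of all probes higher and 0% lower, and none of the 127 genes of the lists, of which 20 had an unadjusted p below 0.05. For Mmp9 this difference was 2.75 (SE 0.33, limma adjusted p = 0.0995) and for Mmp8 it was 3.37 (SE 0.47, limma adjusted p = 0.163). It was smaller for other neutrophil genes that rose in the lungs. Cxcr2 had 1.85 (SE 0.54), Padi4 1.75 (SE 0.41), Mxd1 0.55 (SE 0.25), Il1r2 0.50 (SE 0.32) and Itgam 0.43 (SE 0.40). Csf3r had 0.025 (SE 0.86), with no control adipose array well above background.

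The summed level of the mature neutrophil list, on the log2 scale, was 4.33 to 4.64 in the lungs of HDM rats and 3.65 to 3.97 in those of control rats. In adipose tissue it was 1.93 to 3.09 and 1.53 to 2.44, with overlap. The part of neutrophil number in the values of S100a8 and S100a9 was not tested. Of the granule proteins that are made mainly by neutrophil precursors in the marrow, 1 of 9 measured rose in the lungs and none in adipose tissue. That gene was Pglyrp1, a bactericidal protein of neutrophil granules, which rose by 2.40 on the log2 scale (SE 0.19, limma adjusted p = 0.00170). Elane, neutrophil elastase, and Ctsg, cathepsin G, lay near background on every array of both tissues. Camp and Olfm4 had lung log2 fold changes of 1.26 and 0.88 with groups apart, and they did not pass the test. In adipose tissue they had -0.61 and -1.66 with overlapping groups. The median of this list was 0.36 in the lungs and -0.85 in adipose tissue, where its genes ranged from -1.89 to -0.11. With normexp and quantile normalization the adipose median was -0.04. Over all probes, 0.482% were called higher in the lungs and 0% in adipose tissue.

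The receptors of calprotectin and their adaptors were described next. None of the 12 genes passed the test in either tissue, with median log2 fold changes of 0.00761 in the lungs and 0.27 in adipose tissue. Over all probes, 0.482% were called higher and 0.373% lower in the lungs, and 0% in adipose tissue. In the lungs, Ly96, which pairs with Toll-like receptor 4, had a log2 fold change of 0.42 (SE 0.15), and Myd88, the adaptor below that receptor, of 0.33 (SE 0.09), with groups apart. Ager, the gene of RAGE and a marker of alveolar type I cells, had -0.21 (SE 0.10), and Mcam, an adhesion molecule that binds S100a8 and S100a9 proteins, had -0.57 (SE 0.12, limma adjusted p = 0.0961), with the HDM rats below. In adipose tissue Cd14, the lipopolysaccharide co-receptor, had 1.21 (SE 0.44, limma adjusted p = 0.440). Its adipose levels were 3.01, 3.65, 3.91, 3.43 and 3.76 in HDM rats 1 to 5 and 1.14, 3.01 and 2.86 in control rats, so that HDM rat 1 and control rat 2 lay next to each other. Without control rat 1 the log2 fold change of Cd14 was 0.62.

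In the NADPH oxidase, 1 of 5 measured genes rose in the lungs, where 0.482% of all probes were called higher and 0.373% lower. Ncf4, a cytosolic subunit, rose by 1.04 on the log2 scale (SE 0.14, limma adjusted p = 0.0226), a call that was lost in 6 of the 8 fits with 1 rat left out. Cybb and Rac2 had 0.46 and 0.45 with groups apart. In adipose tissue, where 0% of all probes were called, none of the 5 passed, with a median of 0.43. Among 9 transcription factors of myeloid genes none passed in either tissue. Spi1, the gene of PU.1, had a lung log2 fold change of 0.55 (SE 0.12, limma adjusted p = 0.107). The C/EBP genes went both ways in the lungs, each with overlapping groups. Cebpe had 1.02 (SE 0.31), Cebpa 0.03 (SE 0.10), Cebpb -0.37 (SE 0.13) and Cebpd -0.46 (SE 0.30). Of 10 cytokines known to induce calprotectin, Il1b rose in the lungs by 1.62 (SE 0.26, limma adjusted p = 0.0373), also lost in 6 of these 8 fits. In adipose tissue Il1b had 0.73 (SE 0.25, limma adjusted p = 0.423) with groups apart, and for 5 of the 10 cytokines no adipose array was well above background.

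**Figure D4:**
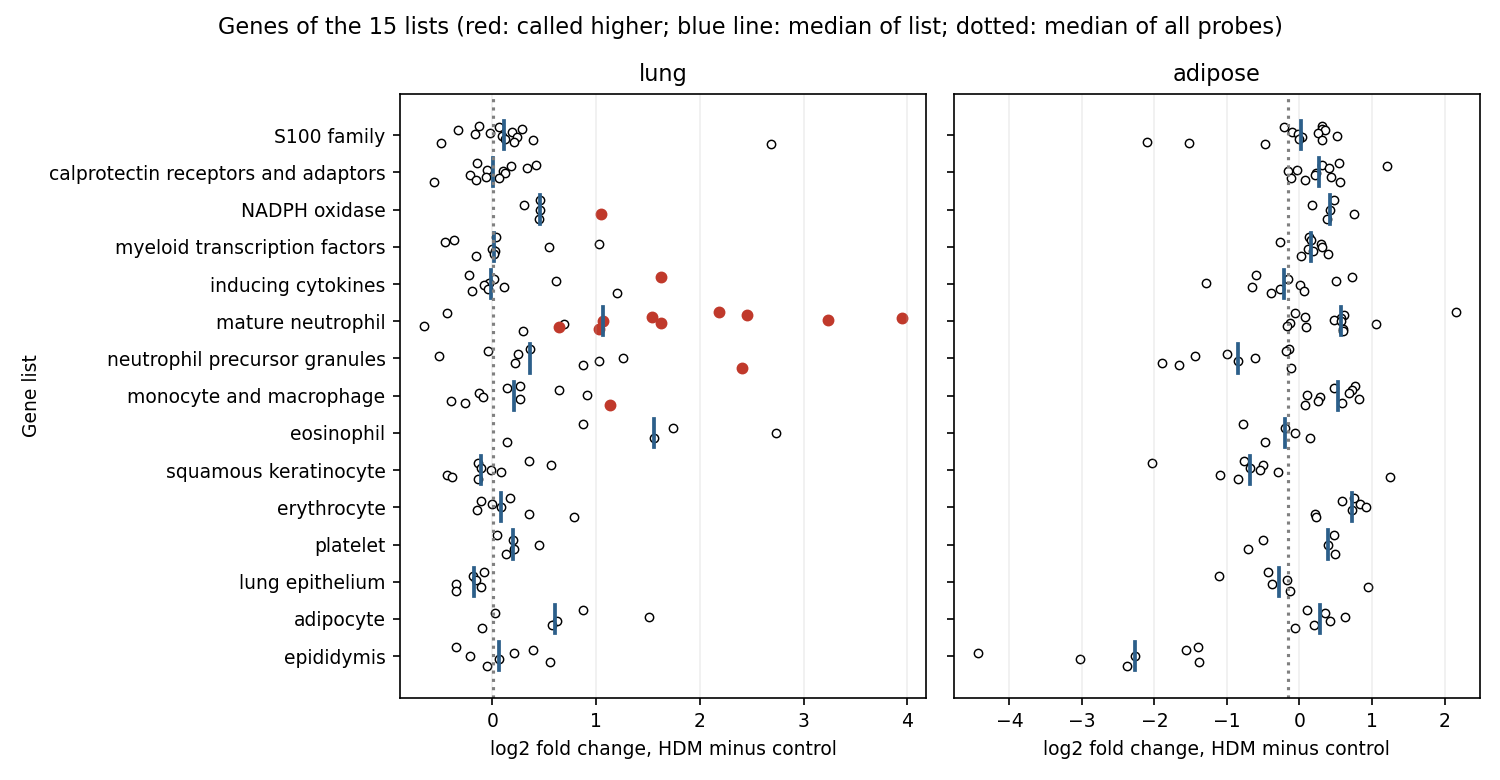
Log2 fold change (HDM minus control) of every measured gene of the 15 lists in the lungs (left) and in adipose tissue (right). Red points passed the test, open points did not, blue lines give the median of a list and the dotted line the median of all probes. In the lungs 9 of 13 mature neutrophil genes are red, and no point is red in adipose tissue.

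Across all 15 lists, 127 of 136 entries had a named probe. In the lungs 13 of these 127 genes rose and none fell, against 0.482% higher and 0.373% lower over all probes. In adipose tissue none passed the test, against 0% over all probes, with 10 at an unadjusted p below 0.05 in limma and 9 in the methods' t-test. Most of the lung calls were neutrophil genes, and a fit blocked on slide row left 2 of them, Mmp8 (adjusted p = 0.0235) and Cxcr2 (adjusted p = 0.0370). With any 1 rat left out, the number of lung calls fell to between 6 and 10. It was 8 without HDM rat 5, 7 without control rat 1, 6 without control rat 2 and 7 without control rat 3. Calls were also lost without each of HDM rats 1 to 4. Of the 13 genes, 6 were called with any 1 rat left out, among them Mmp8, Mmp9, Cxcr2, Csf3r and Pglyrp1. The other 7 were lost without control rat 2, and of these Padi4 was lost in that fit alone (adjusted p = 0.0503) while Il1b, Il1r2, Itgam, Mxd1, Ncf4 and Vcan were lost in 6 to 8 of the 8 fits.

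Markers of other cells that can make or carry calprotectin were measured in the same way. Over all probes, 0.482% were called higher and 0.373% lower in the lungs, and 0% in adipose tissue. Of 10 monocyte and macrophage genes, Vcan, a matrix proteoglycan made by classical monocytes, rose in the lungs by 1.13 (SE 0.16, limma adjusted p = 0.0258), a call lost in 6 of the 8 fits with 1 rat left out, and none of the others passed. Ccr2, Adgre1 and Cd68 had lung log2 fold changes of 0.91, 0.64 and 0.27 with groups apart. In adipose tissue the monocyte and macrophage list had a median of 0.54, and its summed level was 5.24 to 6.74 in HDM rats and 5.14 to 5.95 in control rats. None of the 9 squamous keratinocyte genes passed in either tissue, with medians of -0.11 in the lungs and -0.68 in adipose tissue. For Ivl, the involucrin gene, no adipose array was well above background.

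None of the 5 eosinophil genes passed the test in the lungs, where 0.482% of all probes were called higher. Their median there was 1.56, or 0.36 with normexp and quantile normalization. Prg3, a granule protein of eosinophils, was at least 3.29-fold higher in the lungs of HDM rats (limma adjusted p = 0.0581), and Prg2, the major basic protein, had 1.75 (SE 0.44, limma adjusted p = 0.158). The 7 erythrocyte genes, a measure of blood in the sample, had a median of 0.08 in the lungs and 0.73 in adipose tissue, where their summed level was 7.75 to 8.76 in HDM rats and 6.57 to 8.34 in control rats. HDM rat 5, the lowest HDM rat for S100a8 and S100a9, was the lowest HDM rat for 6 of these 7 genes in adipose tissue and for 0 in the lungs. HDM rat 3, the highest for S100a8 and S100a9, was the highest for 0 of the 7 in adipose tissue and for 2 in the lungs. Hbb, a beta globin, had an adipose log2 fold change of 0.75 (SE 0.27) with groups apart. The part of blood in the adipose values of S100a8 and S100a9 was not tested.

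Platelet genes had a median of 0.20 in the lungs and 0.40 in adipose tissue, and none passed. Ppbp, a platelet chemokine, had -0.50 in adipose tissue and was well above background there on 1 array of each group, and its sign turned under quantile normalization. The epididymis genes were at a summed level of -1.30 to 11.9 in the adipose tissue of control rats and of -2.56 to 11.6 in that of HDM rats. The adipose log2 fold changes without the arrays of HDM rat 1 and control rat 1, where those genes were high, were 4.10 for S100a8 and 4.05 for S100a9. Lcn5, of the same list, was not confined to these arrays. It was well above background on 3 of 5 HDM and 3 of 3 control adipose arrays. Its control mean was 4.27, and HDM rat 5 stood at -2.47 relative to that mean. Epididymis signal was therefore not fully left out of these values. Lung epithelium and adipocyte genes did not pass in either tissue. Sftpd, Cldn18 and Sftpb, of the lung epithelium, had lung log2 fold changes of -0.36, -0.35 and -0.19 with the HDM rats below, and Adam7, of the epididymis list, had 0.39 in the lungs.

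The genes most like S100a8 and S100a9 over all 16 arrays were sought by the root mean square difference of their profiles, each taken relative to the control rats of the tissue. The median over 20979 named probes was 3.45 on the log2 scale. The nearest was Sele, at 0.98, the gene of E-selectin, an adhesion receptor of activated endothelium that captures leukocytes. Then came Stfa2l2 at 1.13, of the stefin A family of cysteine protease inhibitors, followed by Csf3r, Mmp8, Mmp9, Cxcr2, Il1rn, LOC102549211, Ripor2 and LOC102550425, at 1.86 to 2.41. Of these 10 genes, 4 stand on the mature neutrophil list. The measure was built on the HDM contrast, so likeness is a description and carries no test.

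Sele kept the groups apart in adipose tissue as well as in the lungs. Its adipose levels were -2.16, -1.50, -1.99, -3.59 and -4.17 in HDM rats 1 to 5 and -6.03, -6.31 and -6.87 in control rats 1 to 3. HDM rat 5 was the lowest of the HDM rats, as for calprotectin, and HDM rat 2 was the highest. The probe exceeded background clearly for 5 of 5 HDM rats and 0 of 3 control rats, which puts the adipose difference at 4.06-fold or more. In the lungs its levels were -1.82 to -1.52 in HDM rats and -4.82 to -4.17 in control rats, a log2 fold change of 2.86 (SE 0.16), or 7.25-fold.

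Stfa2l2 matched the calprotectin genes most closely in the lungs, with a log2 fold change of 4.42 (SE 0.16), or 21.4-fold. The stefin A genes are near-identical copies, so its probe may read several of them. In adipose tissue it stood at -0.025 in HDM rat 2 and at -4.05 to -3.00 in the other HDM rats, with the control rats between -6.33 and -5.03, a difference of at least 3.82-fold, and of at least 2.37-fold without HDM rat 2. Il1rn, the antagonist of the interleukin-1 receptor, was well above background on all arrays, with log2 fold changes of 1.39 (SE 0.17) in the lungs and 1.29 (SE 0.25) in adipose tissue, both with groups apart. Ripor2 had 0.99 in the lungs, and in adipose tissue the HDM rats exceeded the control rats by 1.66-fold or more.

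**Figure D5:**
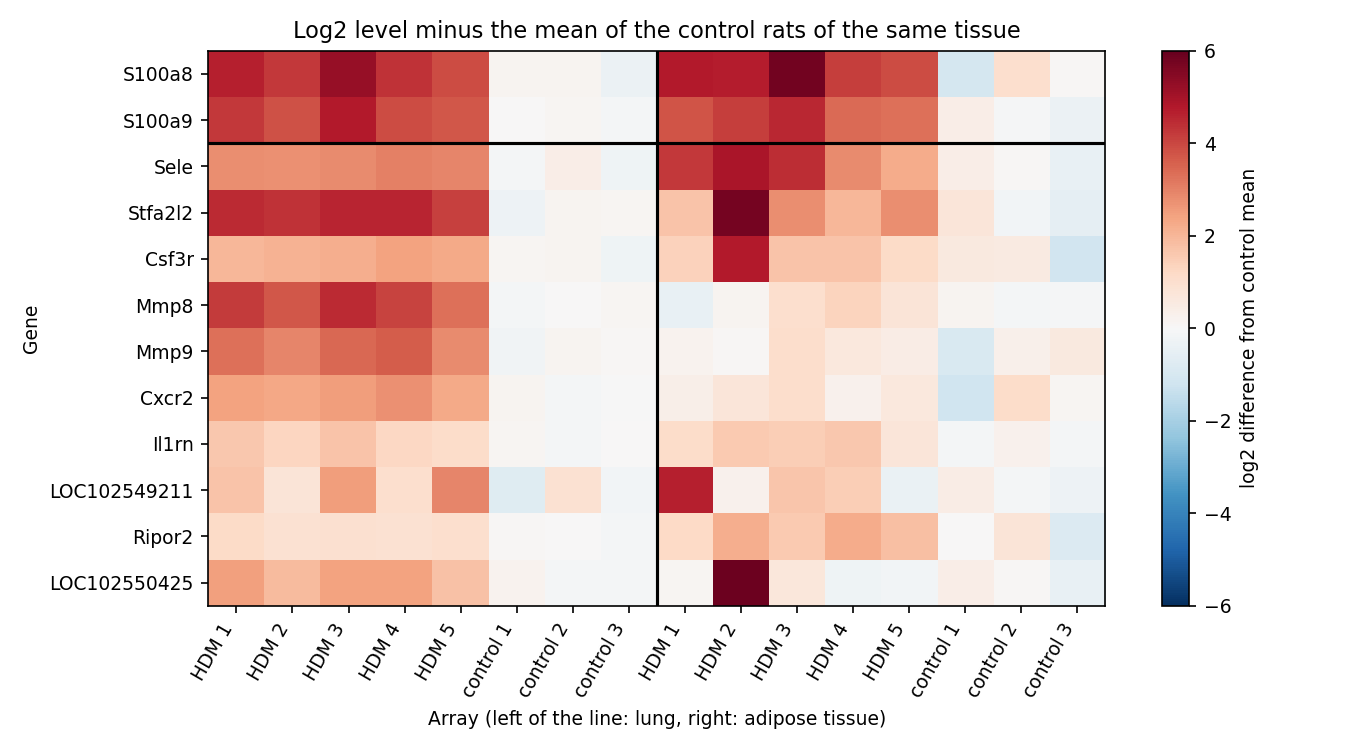
Level of S100a8, S100a9 and the 10 genes nearest to them by whole profile on the 16 arrays, as the log2 difference from the mean of the control rats of the same tissue (color scale, red above and blue below). The lung arrays are on the left of the line and the adipose arrays on the right. Sele, at a root mean square difference of 0.98, keeps its color in both tissues, while Mmp8, Mmp9 and Cxcr2 are dark only in the lungs. Stfa2l2, Csf3r and LOC102550425 are darkest in the adipose tissue of HDM rat 2.

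Covariation within the groups, which leaves the HDM change out, picked other genes. Among 10945 other named genes well above background on at least 5 arrays of each tissue, the likeness was taken as the lowest of 4 correlations, of S100a8 and S100a9 in each tissue, over the deviations of the 8 rats. Its median was -0.37 and its highest value 0.75. The 10 highest were mrpl11, Tmod3, Gngt2, Myct1, Prpf40b, Mrgbp, Phf20l1, Rbm8a, Smndc1 and Chuk, at 0.66 to 0.75, and none of them stands on a list. Csf3r and Mmp8 could not be among them, since too few adipose arrays had them well above background. S100a8 and S100a9 had a correlation of 0.36 with each other in adipose tissue, which limits this likeness. By 1 tissue alone, 154 genes reached 0.9 in the lungs and 0 in adipose tissue. With Spearman in place of Pearson, 5 of the 10 were shared. Gngt2, a G protein subunit, had log2 fold changes of 0.54 in the lungs and 0.48 in adipose tissue. The deviations of these genes had an SD of 0.063 to 0.28 in the lungs and of 0.075 to 0.64 in adipose tissue, and no p is given for a correlation over 8 rats that share their arrays' scaling.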

How the data were processed

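RNA of lung and adipose tissue from 5 HDM and 3 control rats (50 ng per sample) was labeled with Cy3 and hybridized to 1-color Agilent 8x60K rat arrays. The scanner intensity of every spot was deposited, after Agilent Feature Extraction 12.0.3.1 had corrected it for background and spatial trends, together with that program's calls of outliers and of signal well above background. The authors also deposited a log2 table made in GeneSpring GX. It was checked here: 99.95% of its lung cells and 99.83% of its adipose cells lay within 0.1 of the intensities scaled to the 75th percentile and centered on each probe's median within a tissue. It therefore could not be used between tissues. In 39 cells no number stands, and these were treated as missing.

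Outlier and control spots were left out, spots of a probe were averaged, and the 75th percentile of each array was subtracted on the log2 scale. Probes were named through the RefSeq transcripts of the design and a table of 47357 rat genes (GRCr8), which named 21229 of 45598 probes. The array's header gives the rn4 build, so GRCr8 served for names, gene order and the promoter sequence and no probe is placed on it. HDM and control rats were compared in each tissue with limma 3.58.1 (lmFit, eBayes) in R 4.3.3, and p-values were Benjamini-Hochberg adjusted over all probes. A probe was called at an adjusted p below 0.05 and a fold change above 1.5. Lung and adipose arrays were compared within each rat, since the labels tie both to the rat by its number. The test of the difference between the tissues in the HDM change and the bounds without HDM rat 2 were added after the data had been seen. The limma fit of HDM against control was tested in each tissue on simulated data with 200 probes changed.

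The members and the 15 gene lists were chosen with earlier results of these data known. For each list and tissue, up to 4 genes were named, first those called and then those with groups apart, by the size of the change. The 10 genes of each likeness measure were named too. Padi4, Il1r2, Itgam, Mxd1, Cxcr1, Fpr1 and other genes beside their list fall outside the rule and were picked with their values in view. The values of 1 gene of the lists are not reported here. A gene of the lists with several probes is given by the brightest. A gene named by a likeness measure is given by the probe most like S100a8 and S100a9. The values of Sele, with 2 probes, and Ripor2, with 8 probes, are thus those of a probe picked for likeness. Where no array of a group had a probe well above background, a fold is given as a bound. Alternatives covered the scaling, the background correction, outlier spots, the deposited log2 table, dim probes, array weights, the methods' t-test, the row of the slide, the replicate number and each rat left out. Precision is limited by how few arrays there are. The labels name a rat for each array, and the p-values measure the spread between rats.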

Additional observations from a re-analysis of the deposited data

Results flagged for a closer look

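In a group of 5 HDM rats, 1 rat lay far from the other rats for 10 of the 78 gene and tissue sets checked, by a test that chance passes in about 1 of 20 groups. S100a8 and S100a9 were not among them. In adipose tissue, HDM rat 2 lay above the others for Csf3r, at -0.85 against -4.46 to -3.89, for Stfa2l2, at -0.025 against -4.05 to -3.00, and for LOC102550425, at -0.33 against -6.47 to -5.55. For S100vp the same rat stood out in both tissues, at -0.25 in the lungs against -6.40 to -5.50 and at -2.51 in adipose tissue against -6.67 to -6.18. HDM rat 1 stood out in adipose tissue for Adam7, an epididymis gene, at 8.97 against -3.67 to -2.18, for Prg3, at -3.92 against -6.67 to -5.89, and for Myd88, at 4.04 against 4.64 to 4.75. HDM rat 4 was low for Ivl in adipose tissue, at -5.58 against -4.77 to -4.50, and high for Spi1 in the lungs, at 0.32 against -0.04 to 0.06. No adipose array had Ivl well above background, so its spread is not read as a level. S100vp in both tissues, and LOC102550425 and Prg3 in adipose tissue, were well above background for 1 of 5 HDM rats.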

How the results depend on the processing

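The HDM changes of S100a8 and S100a9 kept their direction under every alternative run. Leaving out 1 rat gave log2 fold changes of 4.28 to 4.61 for S100a8 and 3.93 to 4.18 for S100a9 in the lungs, and of 4.12 to 5.18 and 3.65 to 4.04 in adipose tissue. Taking account of the slide row, by blocking or within row 2 alone, moved the lung values to 3.89 and 3.75 and the adipose value of S100a9 to 3.29. Normexp with quantile normalization moved the adipose values to 2.71 and 2.65, and array weights moved that of S100a8 to 3.75. The lung against adipose differences in control rats kept their direction in every fit, between 4.80 and 5.84 for S100a8 and 4.89 and 5.21 for S100a9 with a rat left out, and they were 5.41 and 5.01 with no replicate block. The HDM and control rats share only a replicate number, since the deviations of same-numbered rats had correlations of -0.08 to 0.05 in the lungs and 0.10 to 0.59 in adipose tissue. With the number as a replicate block, the lung and adipose changes were 4.70 and 5.08 for S100a8 and 4.28 and 4.16 for S100a9, and the 13 lung calls of the lists became 0. The lung calls were 6 to 10 with a rat left out, 2 with a block on the slide row, 0 within row 2, which holds 1 HDM rat whose spread was taken from the control rats, and 21 with the adjustment over probes past 1.5-fold only. In the lungs 1 gene, Fpr1, was called lower under quantile normalization, normexp, array weights, the filter on dim probes and the adjustment over probes past 1.5-fold, against 0 otherwise. No list gene was called in adipose tissue under any alternative run. Ppbp in adipose tissue turned from -0.50 to 0.0044 under quantile normalization and 0.035 with normexp. The scaling moved the adipose median of all probes from -0.15 to 0.14 with median scaling. With normexp and quantile normalization, the median of the mature neutrophil list was 0.84 in the lungs and 0.18 in adipose tissue. The adipose median of the squamous keratinocyte list was then -0.18, and the lung median of the NADPH oxidase list was 0.52. Each member has 1 probe, so no other probe could be tried. The signal limits S100a8 in adipose tissue, where 1 of 3 control arrays was not well above background.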
